A study of Mus musculus with 8 samples.

Results

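*Eif1a* and *Gm4340* were each measured by 1 probe, Z00010132-1 for *Eif1a* and Z00026479-1 for *Gm4340*, and these were 2 of the 42006 different probes on the array. The probes were picked by name and read on all 8 arrays. Both genes belong to a set of 7 by which the study recognised the Zscan4 metastate, a passing condition of a minority of mouse embryonic stem cells (ESCs) in which *Zscan4* and other genes of the 2-cell embryo are switched on. The study asked whether retinoic acid (RA), a morphogen that drives differentiation, acts on that metastate.

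eIF1A is a small translation initiation factor that sits on the small ribosomal subunit and, with eIF1, governs scanning along the mRNA and the choice of the start codon. *Eif1a* is an autosomal gene for this factor, and *Eif1ax* on the X chromosome is another. *Gm4340* is a predicted gene whose product resembles Alyref (also called Thoc4), an adaptor protein that hands spliced mRNA to the export receptor Nxf1 at the nuclear pore. One gene thus belongs by homology to translation and the other to RNA export.

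All samples came from 1 transgenic ESC line of strain 129/Sv, given in the labels as ES [129.3:zscan4cEmgfp] cells, in which the *Zscan4c* promoter drives the fluorescent protein Emerald. Cells were sorted at culturing day 5 into Emerald-positive and Emerald-negative fractions. RM-Zscan4+ and RM-Zscan4- cells were grown in regular medium (RM) and had 3 arrays each, labelled biological replicates 1 to 3. RA-Zscan4+ and RA-Zscan4- cells had RA at 1.5 μM and 1 array each, so no spread can be given within RA. Since the sort followed the *Zscan4c* reporter, it selected for cells in which that promoter was active. Each array carried a sorted sample in Cy3 beside mouse reference RNA in Cy5, the reference being common to all, and dyes were not swapped. Each value is the log2 ratio of the Cy3 over the Cy5 signal after background subtraction and dye normalization, so 1 unit is 2-fold.

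The sequence of the *Gm4340* probe is shown because 3 further probes on the array were close to it, and these carry names of predicted genes. The probes were compared without gaps, and the limits for a related probe (an overlap of at least 40 bases and at least 80% identity) were set after the sequences and values had been seen. In the *Gm4340* probe, the capitals mark a run of 11 bases that all 4 probes hold. In the other 3, capitals mark each base that equals the aligned base of the *Gm4340* probe.
*Gm4340*: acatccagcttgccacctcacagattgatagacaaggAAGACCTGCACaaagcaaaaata
*EG667568*: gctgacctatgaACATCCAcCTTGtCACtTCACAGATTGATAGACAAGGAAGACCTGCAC
*EG624262*: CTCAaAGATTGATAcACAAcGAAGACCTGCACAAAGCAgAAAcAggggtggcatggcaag
*LOC669397*: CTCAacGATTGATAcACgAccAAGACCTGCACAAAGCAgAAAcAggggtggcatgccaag
The *EG667568* probe overlapped the *Gm4340* probe by 48 bases and differed at 3 of them (93.8% identity). The *EG624262* probe overlapped it by 44 bases with 5 differences (88.6%), and the *LOC669397* probe by 44 bases with 8 differences (81.8%). The next closest probe on the array reached 58.5%. The *Eif1a* probe likewise had 1 relative, Z00035038-1, which has no gene name here and matched it at all but 5 of 60 bases (91.7%), against 61.7% for the next closest. How far a transcript of one gene binds the probe of another was not measured. The position of the *Eif1a* probe in the genome is not settled either, so its value may hold transcripts of *Eif1ax* or of other copies, which was not tested.

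In the RefSeq genes of mouse build GRCm38.p6, *Gm4340* closes a row of predicted protein-coding genes on chromosome 10. Directly before it stand 6 such genes (*Gm21293*, *Gm6763*, *Gm8764*, *Gm21304*, *Gm21312* and *Gm20765*). The 300 bases around its start (chr10:104193792-104194091, + strand, 250 bases before and 50 after) are printed to show what these copies share, with the letters TATAA at position -30 from the start in capitals.
*Gm4340* promoter: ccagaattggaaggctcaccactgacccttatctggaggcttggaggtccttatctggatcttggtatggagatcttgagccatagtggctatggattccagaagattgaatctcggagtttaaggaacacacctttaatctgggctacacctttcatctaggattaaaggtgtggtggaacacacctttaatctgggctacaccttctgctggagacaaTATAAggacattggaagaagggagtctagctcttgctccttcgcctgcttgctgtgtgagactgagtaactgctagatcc
Of the 6 neighbouring genes, 5 had a promoter at least 99.7% identical over this window, and that of *Gm21312* was identical throughout. *Gm12790*, on chromosome 4, reached 87.0%. A value of the *Gm4340* probe may hold transcripts of several copies, and which of them was not tested. Likeness of promoters does not show it, since transcripts of these genes were not compared with the probe. On either strand, TATAA stood in 24.9% of the 32851 promoters of the same length. The nuclear receptor hexamer AGGTCA had 0 matches here and was present in 16.3% of promoters, and the Zscan4 motif searched as TGCACAC had 0 matches and was present in 4.40%.

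*Zscan4* itself, a zinc finger gene of the 2-cell embryo, was read first as a check of the sort. The RM-Zscan4+ arrays gave log2 ratios of 5.08, 5.59 and 5.03, against 0.10, 0.21 and 0.98 for RM-Zscan4-. With RA the positive cells gave 6.13 and the negative cells 1.88. The fractions were thus apart in the labelled direction in both media. The RA-Zscan4- array stood above all 3 RM-Zscan4- arrays, and the share of all probes for which this held was not counted. None of the 7 pluripotency genes, 4 feeder fibroblast genes and 5 extraembryonic endoderm genes listed for a check of cell identity had a named probe, so that check was not made here.

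In RM, *Eif1a* was higher in Zscan4+ than in Zscan4- cells in every replicate. The log2 ratios of the positive arrays were 4.52, 4.78 and 4.21 (4.50 ± 0.28, SD, n = 3), and those of the negative arrays 1.09, 1.08 and 1.62 (1.26 ± 0.31, SD, n = 3). The groups did not overlap, and the lowest positive array stood 2.59 above the highest negative one. The difference was 3.24 on the log2 scale (SE 0.20, 95% interval 2.75 to 3.74), or 9.45-fold, with an adjusted p of 0.00465 in limma. That fit left out the pairing by replicate number. With the replicate number as a block, the adjusted p was 0.0434 in limma.

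*Gm4340* followed the same order. Here the positive arrays had log2 ratios of 4.02, 4.32 and 3.86 (4.07 ± 0.23, SD, n = 3), and the negative arrays 0.83, 0.60 and 1.43 (0.95 ± 0.43, SD, n = 3). These groups did not overlap either, with a gap of 2.43. The difference was 3.11 (SE 0.23, 95% interval 2.54 to 3.68), or 8.64-fold, with an adjusted p of 0.00934 in limma. With the replicate number as a block, the adjusted p was 0.0494 in limma. In sorted bulk samples a higher level may come from more cells that express the gene or from more RNA in each, and these cannot be told apart.

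Both genes passed the thresholds of the comparison, at least 3-fold and an adjusted p under 0.15, which 81 of 42006 probes passed as higher in RM-Zscan4+ (0.193%). By size of the change, *Eif1a* was number 35 and *Gm4340* number 38 of all probes. Groups that did not overlap, with Zscan4+ higher, were found for 4.97% of 41161 probes, so that property alone is less rare. An exact two-sided permutation test over the 6 arrays gave p = 0.1 for each gene, the smallest that 3 arrays against 3 allow. With the t-statistics of the study's methods, as rebuilt here, the adjusted p was 0.289 for *Eif1a* and 0.458 for *Gm4340*, and 0 probes passed, while 101 were at least 3-fold higher at an unadjusted p under 0.05 (113 in limma).

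**Figure D1:**
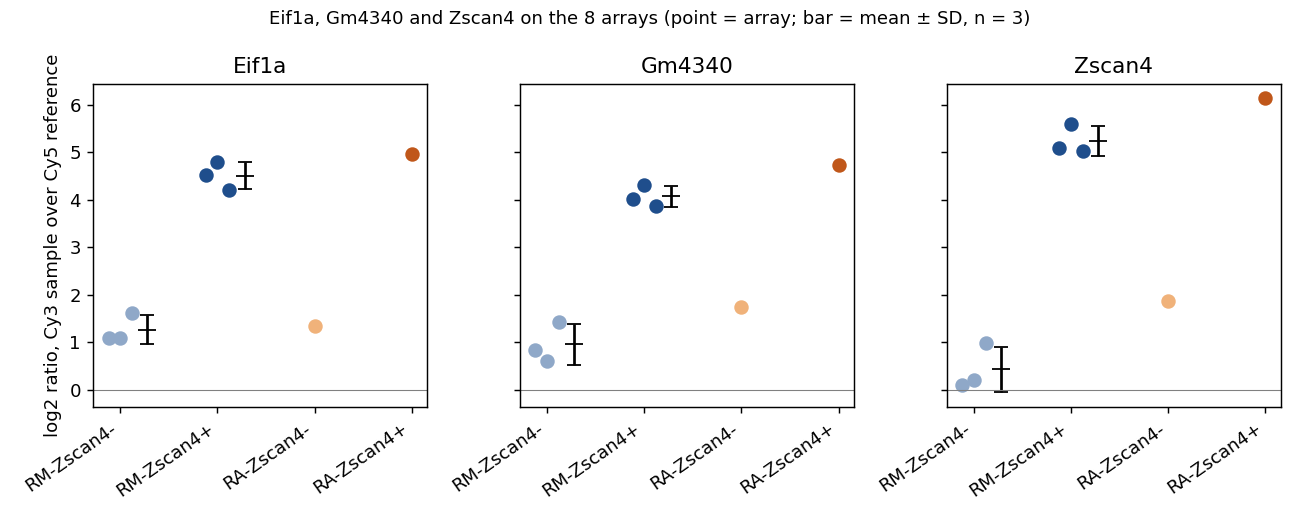
Log2 ratio of the Cy3 sample over the Cy5 reference (vertical axis) of *Eif1a*, *Gm4340* and *Zscan4* in the 4 groups. Each point is 1 array and the bars give the mean ± SD of the 3 RM arrays of a group; all Zscan4+ arrays stand above all Zscan4- arrays, and for *Eif1a* the lowest Zscan4+ array is at 4.21 and the highest Zscan4- array at 1.62.

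The replicates shared an order in both genes. Among the RM-Zscan4+ arrays, replicate 2 was the highest and replicate 3 the lowest for *Eif1a* and for *Gm4340*. Among the RM-Zscan4- arrays, replicate 3 was the highest for both genes and for *Zscan4*. Within pairs of the same replicate number, *Eif1a* differed by 3.43, 3.70 and 2.59 and *Gm4340* by 3.19, 3.72 and 2.43 on the log2 scale. Pair 3 thus gave the smallest difference and pair 2 the largest. The same order of pairs held for *Zscan4* (4.97, 5.37 and 4.05) and for *Tcstv1* (4.91, 5.21 and 3.89), another gene of the set of 7. It was therefore not particular to the 2 genes. Images of pair 2 were extracted on another day than those of pairs 1 and 3, and both genes were higher in Zscan4+ cells on either day.

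In RA, both genes were again higher in Zscan4+ cells, from 1 array against 1 and hence with no replicate check. For *Eif1a* the RA-Zscan4+ array had a log2 ratio of 4.95 and the RA-Zscan4- array 1.35, a difference of 3.60 or 12.1-fold. The values of *Gm4340* were 4.73 and 1.73, a difference of 3.00 or 7.99-fold. Both were past 3-fold, as were 204 of 41958 probes (0.486%), and by size of the change *Eif1a* was number 49 and *Gm4340* number 75. The names of both probes come from a list that the study selected by this same 3-fold change, so passing it in RA is a description.

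The difference in RA minus the difference in RM was 0.36 for *Eif1a* (SE 0.41, 95% interval -0.63 to 1.35, adjusted p = 1.0 in limma). For *Gm4340* it was -0.11 (SE 0.47, 95% interval -1.25 to 1.02, adjusted p = 1.0 in limma). Neither was told apart from 0, but both intervals include a 2-fold difference between the media, so equality is not shown. No probe of 41958 passed in this comparison (0%) by limma or by the t-statistics of the methods, with 1120 (2.67%) and 123 at an unadjusted p under 0.05. The RA arrays also had an image extraction day of their own, so RA and that day cannot be told apart. By the Cy3 signal alone the sign for *Gm4340* turned, to 0.91 (adjusted p = 1.0 in limma).

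The level in each fraction was then compared between media. In Zscan4+ cells, the RA array was above all 3 RM arrays for both genes, by 0.45 for *Eif1a* (SE 0.29, 95% interval -0.25 to 1.15, adjusted p = 0.628 in limma) and by 0.67 for *Gm4340* (SE 0.33, 95% interval -0.14 to 1.47, adjusted p = 0.499). In Zscan4- cells, *Eif1a* in RA lay within the range of the RM arrays and differed from their mean by 0.09 (SE 0.29, 95% interval -0.61 to 0.78, adjusted p = 0.954 in limma). *Gm4340* in RA-Zscan4- was above all 3 RM-Zscan4- arrays, by 0.78 on average (SE 0.33, 95% interval -0.02 to 1.58, adjusted p = 0.420 in limma). None of these 4 differences passed, whereas 2.65% of 41982 probes did in Zscan4+ cells and 2.82% in Zscan4- cells. *Zscan4* was 1.44 higher in RA-Zscan4- than in RM-Zscan4- (adjusted p = 0.200 in limma), and its part in the value of *Gm4340* was not tested. By Cy3 alone, the differences in Zscan4+ cells were larger, at 0.88 for *Eif1a* (adjusted p = 0.9996 in limma) and 1.65 for *Gm4340* (adjusted p = 0.687), and did not pass either. The lone RA array of a fraction was assumed to vary like the RM arrays. The share of all probes with the RA array above all 3 RM arrays was not counted.

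The signals of the 2 dyes show where the ratios came from. For *Eif1a*, the Cy3 signal above local background reached 18500, 17620 and 8804 intensity units in RM-Zscan4+, against 415.2, 266.3 and 563.3 in RM-Zscan4-, and 15470 against 258.3 in RA. For *Gm4340* it was 28280, 27960 and 18230 in RM-Zscan4+, 883.7, 513.2 and 1370 in RM-Zscan4-, and 44160 and 814.9 in RA. No spot of either probe was saturated or carried an outlier flag. Each of these Cy3 values was above the negative controls, whose 95th percentile lay between 31.0 and 49.0 units over the arrays.

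The Cy5 signal came from the common reference, but at these probes it was higher on the arrays where Cy3 was higher. For *Eif1a* it measured 1803, 1524 and 1433 units on the positive arrays of RM against 456.6, 272.5 and 436.0 on the negative arrays, and 2256 against 389.5 in RA. For *Gm4340* it was 3651, 3228 and 3560 against 1231, 816.8 and 1262 in RM, and 7507 against 1096 in RA. The Cy5 values of the RM groups did not overlap for either gene, and the share of all probes for which this held was not counted.

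After normalization, Cy5 differed 3.97-fold between the RM fractions for *Eif1a*, and 10 of all probes had a difference as high (0.0238%). For *Gm4340* it differed 3.25-fold, and 13 probes were as high (0.0309%). In RA the Cy5 difference was 5.38-fold for *Eif1a* and 6.85-fold for *Gm4340*. The median Cy5 difference of all probes was -0.02 in RM and 0.05 in RA on the log2 scale. Cy5 was also higher in Zscan4+ at the probes of *Zscan4* (2.70-fold in RM and 6.51-fold in RA), *Tcstv1* (2.70 and 2.94) and *AF067063* (1.76 and 2.45). It was less so at *BC061212* (1.29 and 2.50) and *Gm12794* (1.16 and 1.54). The rise in Cy5 was thus not particular to the 2 genes. Above the level of the Zscan4- array, the added Cy5 signal was 7.21% to 12.1% of the added Cy3 signal for *Eif1a* over the RM pairs and 12.3% in RA. For *Gm4340* it was 8.78% to 13.6% in RM and 14.8% in RA.

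Because the ratio divides by Cy5, its change was smaller than that of Cy3. By Cy3 alone, scaled to the 75th percentile of each array, the Zscan4+ cells exceeded the Zscan4- cells 37.9-fold in RM and 63.7-fold in RA for *Eif1a*, and 28.4-fold and 53.5-fold for *Gm4340*. The direction was the same under both, and the size of the fold change depended on the use of the reference channel. On the log2 scale, the change of *Eif1a* in RM was 5.24 in Cy3, 1.99 in Cy5 and 3.24 in the ratio. For *Gm4340* it was 4.83 in Cy3, 1.70 in Cy5 and 3.11 in the ratio. Cy3 was scaled to the 75th percentile here and Cy5 was not, so Cy3 less Cy5 need not equal the ratio exactly. What made Cy5 differ was not tested.

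**Figure D2:**
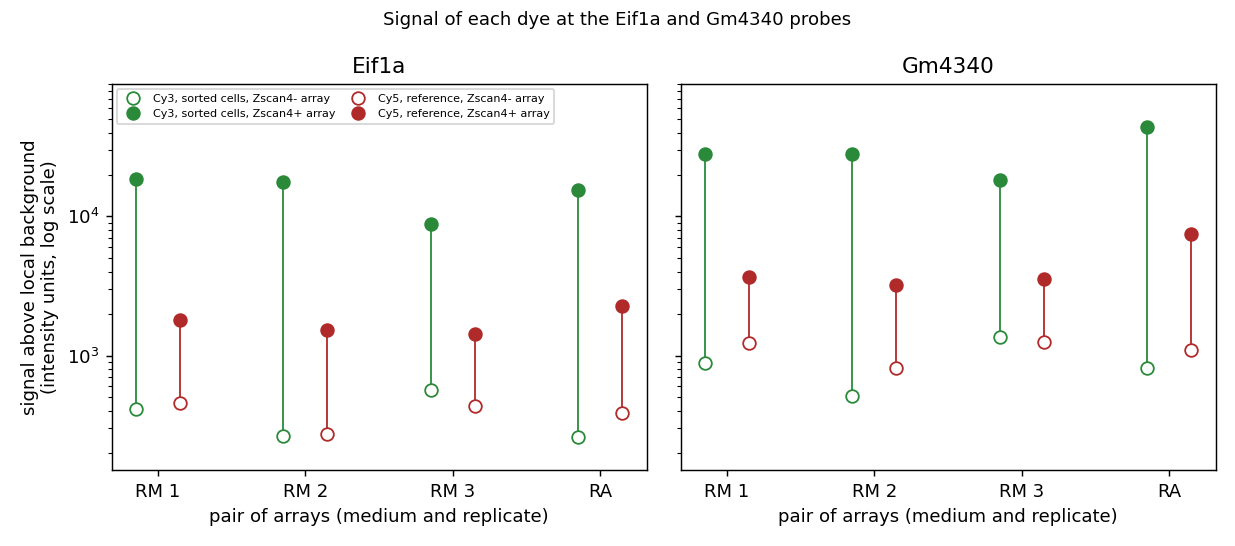
Signal above local background in intensity units (vertical axis, log scale) at the *Eif1a* and *Gm4340* probes for the 3 RM pairs and the RA pair. Lines join the Zscan4- array (open) to the Zscan4+ array (filled) in Cy3 (sorted cells, green) and Cy5 (reference, red); Cy5 is higher on each Zscan4+ array, for *Eif1a* by 3.97-fold on average in RM after normalization.

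The related probes moved with the 2 genes. Z00035038-1, the relative of the *Eif1a* probe, had log2 ratios of 3.89, 4.19 and 3.62 in RM-Zscan4+ and 1.25, 1.17 and 1.52 in RM-Zscan4-. It differed by 2.59 (SE 0.17, adjusted p = 0.00529 in limma), or 6.01-fold, against 9.45-fold for *Eif1a*. In RA it differed by 3.42 or 10.7-fold. Its RA-Zscan4- value of 1.00 was below all 3 RM-Zscan4- arrays, which was not counted over all probes. Since the 2 probes differ at only 5 of 60 bases, they may not be independent measurements, which was not tested.

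Of the relatives of the *Gm4340* probe, the closest, *EG667568*, had log2 ratios of 3.82, 4.21 and 3.79 in RM-Zscan4+ against 1.03, 0.69 and 1.19 in RM-Zscan4-. It differed by 2.97 (adjusted p = 0.00379 in limma), or 7.84-fold. *LOC669397*, the least alike in sequence, differed by 2.84 (adjusted p = 0.00379), or 7.18-fold. *EG624262*, an older name of the RefSeq pseudogene *Gm6489*, differed by 1.83 (SE 0.19, adjusted p = 0.0409), or 3.55-fold. The 3 probes are ordered here by size of the change, and their binding to one another's transcripts was not measured.

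In RA the 3 probes differed by 9.15-fold, 11.0-fold and 5.46-fold in the same order, and *EG624262* was again the lowest. All 4 related probes passed the thresholds in RM, as did *Eif1a* and *Gm4340*, against 0.193% of 42006 probes. Each was also higher in 3 of 3 pairs, and the share of all probes for which this held was not counted. Because the 4 probes overlap in sequence with those of the 2 genes, these counts were not taken as separate evidence for either gene.

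**Figure D3:**
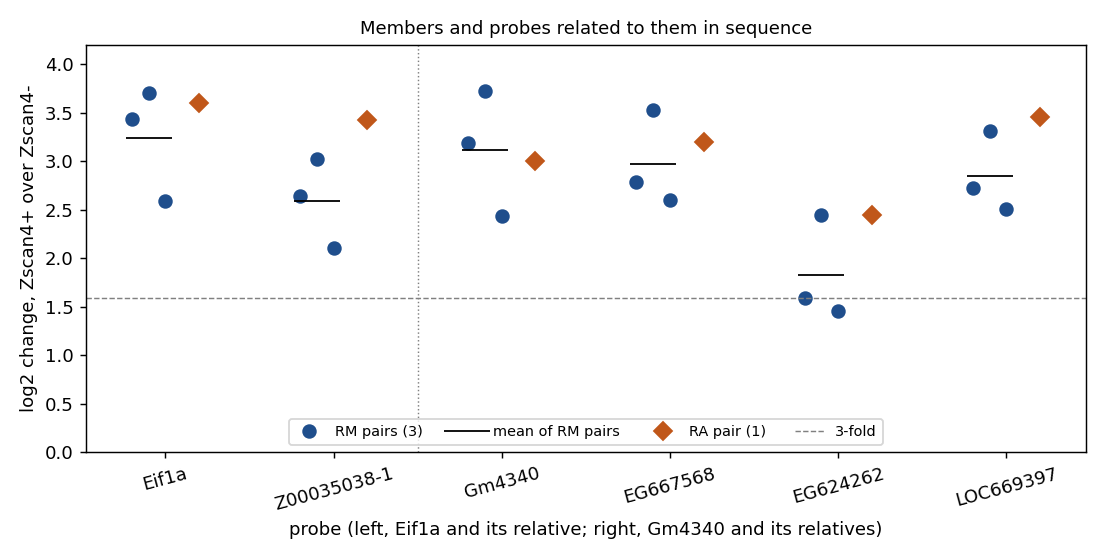
Log2 change of Zscan4+ over Zscan4- (vertical axis) for *Eif1a* with its related probe and for *Gm4340* with its 3 related probes. Circles are the 3 RM pairs, lines their mean and diamonds the single RA pair, and the dashed line marks 3-fold; all means are above it, the lowest being *EG624262* at 1.83.

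The other genes of translation and RNA export could not be set beside the 2. Only 128 probes had a gene name at hand, all from a list of the study that was selected for a change of 3-fold or more between these very RA arrays, so counts of named genes in RA restate that selection. Of 50 genes listed for translation initiation 1 was named, *Eif1a* itself, and of 32 listed for mRNA export 1 was named, *Gm4340* itself.

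The remaining genes of the metastate signature gave larger changes of the ratio in both media. *Tcstv1*, a gene of the 2-cell embryo, rose 25.5-fold in RM, past the thresholds, and stood 24.1-fold higher in the RA pair. *Gm12794*, of the Prame family, was 17.4-fold and 28.1-fold higher. *BC061212* was 17.2-fold and 22.9-fold higher, *AF067063* 16.0-fold and 17.7-fold, and *Zscan4* 27.8-fold and 19.1-fold. All 7 signature genes passed in RM and were past 3-fold in RA, with *Eif1a* and *Gm4340* the lowest of the 7 by the ratio in both media. That order did not hold by Cy3 alone, where *Eif1a* at 37.9-fold in RM was above *AF067063* (28.4-fold), *BC061212* (22.4-fold) and *Gm12794* (20.4-fold). It did not hold in the study's own list for RA either. That list gives larger changes than here for *Eif1a*, *Gm4340*, *Zscan4* and *Tcstv1*. In it, *Eif1a* and *Gm4340* stand above *BC061212* and *AF067063*, and *Eif1a* also above *Gm12794*. The reason for the difference was not tested. The study cites earlier work on the Zscan4 metastate for this signature, and the probe names come from the list selected in RA. The count is thus not independent evidence of the direction. Of 10 listed genes of the 2-cell embryo 9 were named, and of 6 listed neuroectoderm genes 3 (*Lmx1a*, *Cdh20* and *Bdnf*). Their naming rests on the selection in RA, so no count of their changes is given.

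**Figure D4:**
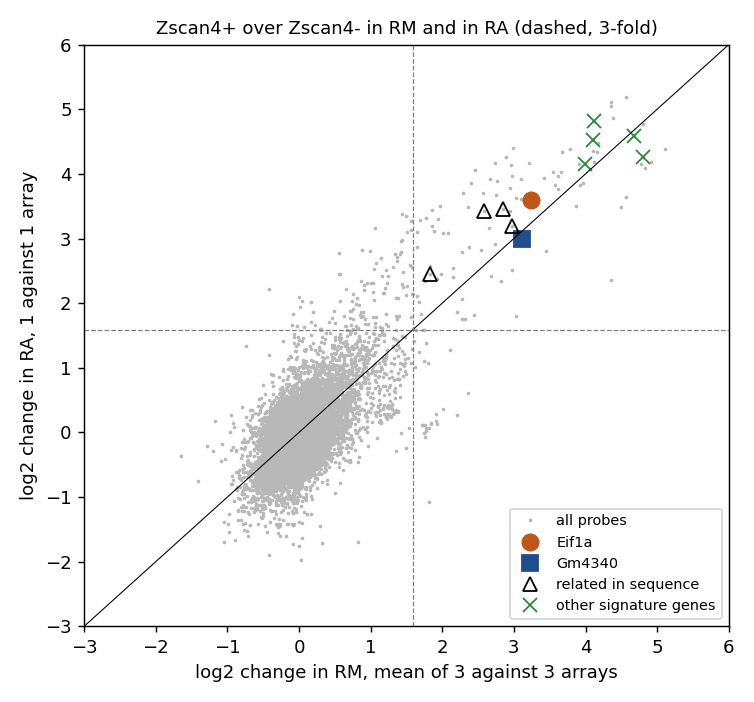
Log2 change of Zscan4+ over Zscan4- in RM (horizontal axis, means of 3 against 3 arrays) and in RA (vertical axis, 1 against 1 array) for all probes, with 3-fold dashed and equal changes on the diagonal; 2 probes lie outside the axes. *Eif1a* (3.24 and 3.60) and *Gm4340* (3.11 and 3.00) sit near the diagonal, below the other 5 signature genes in this ratio but not by Cy3 alone.

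The named probes most like each gene over the 8 arrays are given as a description. All r given here were at least 0.984, and no difference between them was tested. Names come only from the list selected in RA, which limits which probes can appear. Of the 10 probes closest to *Eif1a*, 5 were named, and of the 10 closest to *Gm4340*, all 10 were. By Pearson's r of the log2 ratios, a description over 8 arrays that share the reference and the sort, the named probes closest to *Eif1a* were *Tcstv1* (0.998), *2310065F04Rik* (0.997), *Lgals4* (0.996), *AF067063* (0.996) and *RP23-289L21.1* (0.996). Those closest to *Gm4340* were *Hmga2-ps1* (0.998), *Zscan4* (0.997), *Drr2* (0.997), *LOC665446* (0.997) and *EG226955* (0.997).

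*Gm4340* was number 32 of 41112 probes in likeness to *Eif1a* (r = 0.988), and *Eif1a* was number 26 for *Gm4340*. *Zscan4* was number 2 for *Gm4340* and number 42 for *Eif1a* (r = 0.984). On the RA-Zscan4- array *Gm4340* stood 0.78 above its mean in RM-Zscan4-, and its 5 named probes stood between 0.86 (*Hmga2-ps1*) and 1.65 (*LOC665446*) above theirs. *Eif1a* stood 0.09 above its mean, and its 5 named probes between -0.08 (*2310065F04Rik*) and 0.67 (*RP23-289L21.1*). The likeness was measured on these same arrays, so this is a description only, and none of these differences passed an adjusted p of 0.15 in limma, the lowest being 0.182 for *LOC665446*.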

How the data were processed

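RNA of the sorted cells (Cy3) and a mouse reference (Cy5) were hybridized to 60-mer oligonucleotide arrays. Per the file headers, the deposited scanner output holds intensity values from Agilent Feature Extraction, with local background subtracted and dyes normalized within each array, and surrogates for low signals. The labels give total RNA by TRIzol, whereas the study's methods give a poly-A kit. A series matrix in log10 units was deposited as well. Its medians per array were 2.94 to 2.95, and 99.53% of its values equalled, within 0.001, the log10 ratio of Cy3 over Cy5 shifted by the probe's own mean log10 Cy5, which gives scale, centring and direction. It served as an alternative.

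The log2 ratio of processed Cy3 over Cy5 was taken without control spots (among them 314 negative controls) and outlier flags, and repeated spots of a probe were averaged. Group means of 42006 probes were fitted with limma (version 3.58.1, under R 4.3.3). P-values were adjusted over all probes by Benjamini-Hochberg, and exact tests used scipy 1.17.1. The false discovery rate of 0.15 and 3-fold come from the study. The fit was tested on simulated data, but no outcome of that is given here and it is not used as support. The median probe signal above background was 114.4 to 240.7 in Cy3 and 254.3 to 501.2 in Cy5, and log2 ratios of arrays correlated at 0.780 to 0.938. The number of arrays limits the precision. The labels call RM arrays biological replicates without naming separate cultures, so p-values measure the spread between these samples.

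Replicate numbers come from the labels. Deviations from the group means correlated at 0.386, 0.559 and 0.590 between RM arrays of the same number and at -0.51 to -0.04 between others, which was taken as a pairing of the arrays. The headers gave 3 days of image extraction: RM replicates 1 and 3, RM replicate 2, and RA.

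Named genes are the 2 genes, the other signature genes, related probes, genes of the lists with a named probe, and for each gene the 5 named probes with the highest Pearson's r. Names come from a supplementary list of 128 probes. Values in that list were used only to state how its RA changes compare for the signature genes. The genes, lists and tests were chosen with earlier results of these data known. Promoters and gene order come from RefSeq (GRCm38.p6). The build behind the array's design is not given in the sources used here, and no position is given for the probes. Alternatives were other background corrections, Cy3 alone, the series matrix, flagged spots kept, the t-statistics of the methods, blocks for replicate number and image extraction day, each RM array left out, RM arrays alone, a filter on dim probes, and other thresholds.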

Additional observations from a re-analysis of the deposited data

How the results depend on the processing

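Both genes stayed higher in RM-Zscan4+ under every alternative run, and past the thresholds in all but the t-statistics of the methods (3.24 with adjusted p = 0.289 for *Eif1a*, 3.11 with 0.458 for *Gm4340*), under which the count of probes fell from 81 to 0. The replicate block left the differences at 3.24 and 3.11 with limma's adjusted p at 0.0434 and 0.0494, kept both genes past the thresholds and gave 104 probes in place of 81; with the image extraction day as a block the count was 83. With 1 RM array left out, the RM difference ran from 3.10 to 3.42 for *Eif1a* and 2.93 to 3.35 for *Gm4340*, and the count from 52 (without RM-Zscan4+ replicate 1) to 93 (without RM-Zscan4+ replicate 3). RA minus RM ran from 0.18 to 0.50 for *Eif1a* and from -0.35 to 0.07 for *Gm4340*, where the sign turned without RM-Zscan4+ replicate 2 (0.01) or its RM-Zscan4- partner of the same number (0.0654, the highest value). RA over RM in Zscan4- cells ran from -0.0041 to 0.26 for *Eif1a*, turning without RM-Zscan4- replicate 1 (-0.0024) or replicate 2 (-0.0041), and from 0.60 to 1.02 for *Gm4340*; in Zscan4+ cells it ran from 0.30 to 0.58 and from 0.56 to 0.79. By Cy3 alone, the RA difference was 5.99 for *Eif1a* and 5.74 for *Gm4340*, and RA minus RM of *Gm4340* was 0.91. The RA count was 497 at 2-fold and 118 with limma's p, which takes the spread of the RA arrays wholly from the RM arrays and is no replicate check of the RA pair. The cause of these changes was not tested. Signal over background limits dim probes, not these 2.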
